A study of Mus musculus with 16 samples.

Results

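Sparcl1, Col15a1, Vwa1, Ntrk2, Ackr1, Lrg1, Nes and Ebf1 are 8 of the 43346 genes measured by RNA sequencing of endothelial cells (ECs) of the lung, which form the inner lining of its vessels. They were chosen by name as genes tied to EC activation after lung injury, or to the vessels of the systemic circulation that also supply the airways. The choice was made with results of these same libraries known, so their differences between bleomycin and sham libraries are given as a description, without p-values for single genes. All 8 were found once each in the gene table, and all had counts in each of the 16 libraries.

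The mice were FVB animals that carried a Col1a1-GFP transgene, a reporter of collagen-making cells, in all 4 groups, and both sexes were used. Bleomycin, a drug that injures the lung and leads to fibrosis, was delivered into the trachea, and sham mice received buffered saline. Cells were collected at a time that the study calls the early resolution phase of the fibrosis, so the bleomycin values are not those of the first days after injury. The groups were Young Sham (2 months, n = 5, libraries 21 to 25), Young Bleo (2 months, n = 4, libraries 17 to 20), Aged Sham (18 months, n = 3, libraries 13 to 15) and Aged Bleo (18 months, n = 4, libraries 1, 2, 3 and 5). Per the study's methods, ECs were sorted as CD31+ cells that lacked CD45, EpCAM and GFP. Per the study's text, the RNA came from lungs that were also used for a chromatin assay in which a data point was a single mouse. The labels do not number the mice, and the tests measure the spread between these libraries. Total counts per library were 20907113 to 71035301.

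Capillary ECs of the lung are of 2 main kinds, the aerocytes that lie at the gas exchange surface and the general capillary ECs that can renew the bed. Larger and systemic-type vessels carry other transcripts. After injury, lung ECs are known to switch on a set of secreted matrix and signalling genes. Sparcl1 encodes a secreted matricellular glycoprotein of the SPARC family. Col15a1 encodes a collagen of the zone beneath the basement membrane and is widely used to mark systemic-type ECs of the bronchial circulation. Vwa1 encodes a matrix protein with a von Willebrand factor A domain that binds perlecan. Ntrk2 encodes TrkB, the receptor of brain-derived neurotrophic factor, and Ackr1 encodes an atypical chemokine receptor of venular ECs that takes up and carries chemokines without G-protein signalling. Lrg1 encodes a secreted leucine-rich glycoprotein that alters TGF-beta signalling through endoglin. Nes encodes nestin, an intermediate filament protein, and Ebf1 encodes a transcription factor of the EBF family.

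On mm10, Sparcl1 (ENSMUSG00000029309) lies at chr5:104079111-104114088, Col15a1 (ENSMUSG00000028339) at chr4:47208161-47313167 and Vwa1 (ENSMUSG00000042116) at chr4:155768149-155774698. Ntrk2 (ENSMUSG00000055254) lies at chr13:58806596-59133970 and Ackr1 (ENSMUSG00000037872) at chr1:173331886-173333750. Lrg1 (ENSMUSG00000037095) lies at chr17:56119680-56121946, Nes (ENSMUSG00000004891) at chr3:87971078-87980451 and Ebf1 (ENSMUSG00000057098) at chr11:44617317-45008091. The table gives another gene that overlaps 5 of the 8, and the strand setting of the counting is not given in the sources used here. The interval of Vwa1 is shared in part with the long non-coding gene Gm26840 (mean of 942 normalized counts). Vwa1 and Gm26840 had a Pearson correlation of 0.993 over the 16 libraries, and reads of the pair cannot be told apart without the strand. Ackr1 overlaps Cadm3 (mean of 63.6 normalized counts), beside a mean of 112 normalized counts for Ackr1 itself in Young Sham. Ebf1 overlaps AL603913.1 and Gm12158, Sparcl1 overlaps Gm26703 and Col15a1 overlaps Gm12426, each with a mean at or below 99.6 normalized counts.

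The promoters of 4 members whose levels were far higher after bleomycin are shown because these genes moved together across libraries and because the study asks about ERG, an ETS-family factor of ECs. The table of RefSeq promoters (GRCm38.p6) held 6 of the 8 members. Each sequence below is the 250 bases before the RefSeq start on the gene's own strand, 5′ to 3′, and capitals mark GGAA, the core of ETS sites, or TTCC, its reverse complement. The windows are chr17:56121947-56122196 on the minus strand for Lrg1, chr1:173333504-173333753 on the minus strand for Ackr1, chr13:58806319-58806568 on the plus strand for Ntrk2 and chr4:47207762-47208011 on the plus strand for Col15a1.
Lrg1: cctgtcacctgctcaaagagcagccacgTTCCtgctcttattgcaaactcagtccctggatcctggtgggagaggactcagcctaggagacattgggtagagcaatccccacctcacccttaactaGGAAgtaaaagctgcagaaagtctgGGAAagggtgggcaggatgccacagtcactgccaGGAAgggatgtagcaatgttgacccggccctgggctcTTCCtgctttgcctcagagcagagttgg
Ackr1: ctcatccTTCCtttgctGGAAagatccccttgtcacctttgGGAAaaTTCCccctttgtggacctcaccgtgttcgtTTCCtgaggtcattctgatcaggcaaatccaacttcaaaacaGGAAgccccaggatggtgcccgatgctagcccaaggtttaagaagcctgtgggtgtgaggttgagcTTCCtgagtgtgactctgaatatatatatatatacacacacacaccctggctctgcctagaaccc
Ntrk2: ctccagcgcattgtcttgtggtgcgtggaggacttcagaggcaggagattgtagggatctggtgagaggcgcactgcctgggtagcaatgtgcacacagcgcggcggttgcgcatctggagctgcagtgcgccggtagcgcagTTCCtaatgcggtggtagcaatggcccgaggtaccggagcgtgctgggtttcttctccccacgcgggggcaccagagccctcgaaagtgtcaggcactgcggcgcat
Col15a1: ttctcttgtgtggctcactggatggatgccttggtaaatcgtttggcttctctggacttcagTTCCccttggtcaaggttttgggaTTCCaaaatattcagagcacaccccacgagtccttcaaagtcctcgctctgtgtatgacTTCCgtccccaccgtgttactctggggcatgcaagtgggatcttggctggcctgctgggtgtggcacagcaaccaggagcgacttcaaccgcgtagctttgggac
The core occurred 5 times for Lrg1, 7 times for Ackr1, 1 time for Ntrk2 and 3 times for Col15a1. At least 1 match was present in 93.4% of all 32851 promoters of this length, with a median of 3 matches, so its presence does not set these genes apart. Of all promoters, 96.2% had fewer matches than Ackr1 and 82.0% had fewer than Lrg1, whereas 6.55% had fewer than Ntrk2. The Nes window held 3 matches and the 2 Ebf1 windows held 2 and 4. The AP-1 letters TGANTCA, the STAT letters TTCNNNGAA and the TATA letters TATAAA were searched on both strands and were in none of the 7 windows of the members. These letters are in 6.75%, 7.02% and 12.4% of all promoters. Nearly the whole Ackr1 window and both Ebf1 windows lie inside the gene intervals of the count table, since the RefSeq starts differ from the ends of those intervals. A match or its absence is a property of these letters only.

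Levels are given as FPKM (fragments scaled to gene length and library size, the authors' values), which allow genes to be compared per length. Fold changes were fitted on the counts with DESeq2 across all genes, and a gene was called when its adjusted p was at most 0.05 and its absolute log2 fold change at least 0.5. Some libraries stood apart from the others of their group over the 6 members that were much higher in Young Bleo (Ntrk2, Sparcl1, Lrg1, Ackr1, Vwa1 and Col15a1). Aged Sham 14 was the highest Aged Sham library for all 6. Aged Bleo 3 and Aged Bleo 5 were the lower pair of the Aged Bleo libraries for all 6, and Young Bleo 20 was the lowest Young Bleo library for 5 of 6. Without Young Bleo 20, the log2 fold change of Young Bleo against Young Sham was 3.93 for Sparcl1, 2.30 for Col15a1, 2.48 for Vwa1, 4.76 for Ntrk2, 3.62 for Ackr1 and 4.01 for Lrg1. For Aged Bleo against Aged Sham without Aged Bleo 3, it was 3.05, 1.33, 2.27, 2.95, 2.56 and 2.24 for the same genes in this order, and without Aged Bleo 5 it was 3.04, 1.25, 2.31, 2.95, 2.37 and 2.16. No call of these 6 genes in these comparisons changed in the 3 fits. Values without Aged Sham 14 are given with each gene.

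**Figure D1:**
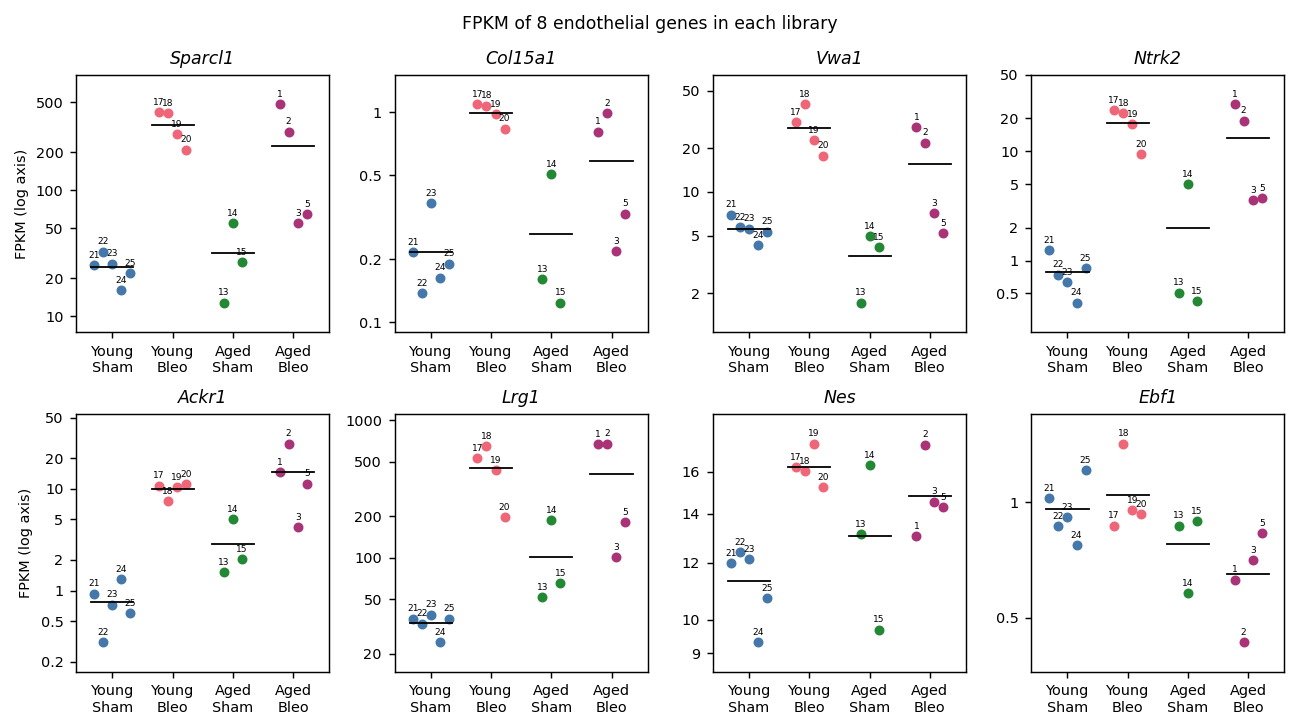
FPKM on a log axis (each panel has its own range) for the 8 genes in each of the 16 libraries, with the library number above each point and the group mean as a black line. Young Bleo lies above Young Sham without overlap for 7 of the 8 genes, and Aged Bleo splits into libraries 1 and 2 at the top and libraries 3 and 5 below them for 6 genes.

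Sparcl1 was among the most abundant of the members. Its FPKM was 25.3, 32.5, 26.1, 16 and 21.9 in Young Sham 21 to 25 and 417, 411, 277 and 210 in Young Bleo 17 to 20. In the aged mice it was 12.8, 54.9 and 26.9 in Aged Sham 13 to 15 and 482, 292, 54.4 and 64.8 in Aged Bleo 1, 2, 3 and 5. Every Young Bleo library lay far above every Young Sham library, while Aged Sham 14 and Aged Bleo 3 were at nearly the same level. The log2 fold change was 3.75 ± 0.51 (SE) for Young Bleo against Young Sham (13.4-fold) and 3.24 ± 0.51 for Aged Bleo against Young Sham, which was 2.57 without Aged Bleo 1. Against their own sham, the aged mice gave 2.73 ± 0.59, which was 3.42 without Aged Sham 14 and 2.06 without Aged Bleo 1.

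Col15a1 was measured at a low level, with 60 to 925 counts per library. Its FPKM was 0.216, 0.137, 0.370, 0.163 and 0.190 in Young Sham 21 to 25 and 1.09, 1.08, 0.980 and 0.836 in Young Bleo 17 to 20. It was 0.160, 0.505 and 0.124 in Aged Sham 13 to 15 and 0.809, 0.987, 0.217 and 0.329 in Aged Bleo 1, 2, 3 and 5. Young Bleo did not overlap Young Sham, but Aged Bleo 3 and 5 lay within the Young Sham range. Against Young Sham, Col15a1 had a log2 fold change of 2.20 ± 0.47 (SE) in Young Bleo and 1.49 ± 0.47 in Aged Bleo. The latter was 1.32 and 1.07, and no longer called, without Aged Bleo 1 or Aged Bleo 2, and leaving out Young Sham 22 (1.36) or 24 (1.42) also ended the call, as did edgeR and limma. Against Aged Sham it was 1.05 ± 0.54 and was not called, and without Aged Sham 14 it was 1.94 and was called. Without Aged Bleo 2 it was 0.62.

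Vwa1, whose interval is shared in part with Gm26840, had FPKM of 6.98, 5.74, 5.59, 4.28 and 5.33 in Young Sham 21 to 25 and 30.2, 40.3, 22.8 and 17.8 in Young Bleo 17 to 20. Aged Sham 13 to 15 had 1.72, 4.98 and 4.14, and Aged Bleo 1, 2, 3 and 5 had 28.1, 21.9, 7.17 and 5.22. Aged Bleo 5 lay within the Young Sham range, and Aged Bleo 1 and 2 lay within the Young Bleo range. Vwa1 gave log2 fold changes of 2.30 ± 0.42 (SE) for Young Bleo and 1.51 ± 0.42 for Aged Bleo against Young Sham. The latter was 1.09 and 1.26, and no longer called, when Aged Bleo 1 or Aged Bleo 2 was left out, and limma did not call it. Against Aged Sham it was 2.02 ± 0.48, and 2.34 without Aged Sham 14.

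The receptor gene Ntrk2 had the highest fold change of the members in Young Bleo. Its FPKM was 1.25, 0.745, 0.635, 0.412 and 0.852 in Young Sham 21 to 25 and 23.5, 22.2, 17.5 and 9.45 in Young Bleo 17 to 20. It was 0.510, 4.99 and 0.427 in Aged Sham 13 to 15 and 26.8, 19.0, 3.58 and 3.72 in Aged Bleo 1, 2, 3 and 5. Aged Sham 14 therefore stood above Aged Bleo 3 and 5, whereas the other Aged Sham libraries were within the Young Sham range. The log2 fold change was 4.53 ± 0.73 (SE) for Young Bleo (23.2-fold) and 4.13 ± 0.73 for Aged Bleo against Young Sham. Against Aged Sham it was 2.64 ± 0.83, and leaving out Aged Sham 14 moved it to 4.71. Without Aged Bleo 1 it was 2.07, without Aged Bleo 2 it was 2.37, without Aged Sham 13 it was 2.19 and without Aged Sham 15 it was 2.15, and in each of these it was not called.

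The chemokine receptor gene Ackr1 was low in Young Sham, with FPKM of 0.937, 0.314, 0.731, 1.29 and 0.602 in libraries 21 to 25. It was 10.8, 7.63, 10.4 and 11.1 in Young Bleo 17 to 20, 1.52, 5.00 and 2.05 in Aged Sham 13 to 15, and 14.7, 27.8, 4.19 and 11.2 in Aged Bleo 1, 2, 3 and 5. All libraries of the other groups lay above all Young Sham libraries. Ackr1 had the highest mean of the 4 groups in Aged Bleo (14.5 ± 9.88, SD, n = 4) rather than Young Bleo (9.97 ± 1.58, SD, n = 4). The ranges of these 2 groups overlapped, and the order rested on Aged Bleo 2, since the log2 difference between them went from 0.61 to 0.02 without it. The log2 fold change against Young Sham was 3.64 ± 0.48 (SE) for Young Bleo and 4.25 ± 0.48 for Aged Bleo, and against Aged Sham it was 2.25 ± 0.54 for Aged Bleo. The latter was 2.94 without Aged Sham 14 and 1.66 without Aged Bleo 2, and without Aged Bleo 2 the value against Young Sham was 3.66.

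Lrg1 was the most abundant member in every group mean, and its product is secreted. Its FPKM was 36.0, 33.1, 38.5, 24.4 and 36.1 in Young Sham 21 to 25 and 532, 648, 437 and 196 in Young Bleo 17 to 20. It was 51.9, 189 and 65.1 in Aged Sham 13 to 15 and 675, 678, 101 and 182 in Aged Bleo 1, 2, 3 and 5. Young Sham was below every library of the other groups, and Aged Sham 14 was close to Young Bleo 20 and above Aged Bleo 3 and 5. The log2 fold change against Young Sham was 3.74 ± 0.50 (SE) for Young Bleo and 3.65 ± 0.50 for Aged Bleo. Against Aged Sham it was 1.91 ± 0.56, which was 2.72 without Aged Sham 14. It was 1.58 without Aged Bleo 1, 1.5 without Aged Bleo 2, 1.61 without Aged Sham 13 and 1.65 without Aged Sham 15, and was not called in these.

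Nes differed from the 6 genes above in the size of its change. Its FPKM was 12.0, 12.4, 12.1, 9.33 and 10.7 in Young Sham 21 to 25 and 16.3, 16, 17.5 and 15.3 in Young Bleo 17 to 20. Aged Sham 13 to 15 had 13.1, 16.3 and 9.70, and Aged Bleo 1, 2, 3 and 5 had 13.0, 17.5, 14.6 and 14.3. Both bleomycin groups lay above Young Sham without overlap, by small steps. The log2 fold change against Young Sham was 0.50 ± 0.17 (SE) for Young Bleo, at the threshold for a call, and 0.41 ± 0.16 for Aged Bleo, which was not called. Against Aged Sham, Aged Bleo was at 0.06 ± 0.19 and overlapped. The Young Bleo call was lost in 5 of the 16 fits that left out 1 library, namely Young Bleo 17 (0.50), 18 (0.51) or 19 (0.45) or Young Sham 24 (0.46) or 25 (0.49).

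Ebf1, the transcription factor of the set, showed no rise after bleomycin. Its FPKM was 1.03, 0.864, 0.915, 0.771 and 1.21 in Young Sham 21 to 25, and 0.868, 1.42, 0.952 and 0.933 in Young Bleo 17 to 20. It was 0.869, 0.579 and 0.891 in Aged Sham 13 to 15, and 0.628, 0.432, 0.705 and 0.83 in Aged Bleo 1, 2, 3 and 5. Young Bleo and Young Sham overlapped, with a log2 fold change of 0.10 ± 0.22 (SE). Aged Bleo lay just below Young Bleo without overlap, and below all Young Sham libraries except 24, which lay between Aged Bleo 3 and 5 on the FPKM scale. On normalized counts, Aged Bleo was below all Young Sham libraries, and the log2 fold change was -0.56 ± 0.22, which was not called. It was called without Aged Bleo 5 (-0.69) and without Young Bleo 18 (-0.56). Against Aged Sham it was -0.40 ± 0.25, and the groups overlapped.

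For Young Bleo against Young Sham, 7 of the 8 genes were called higher, where 7.69% of all genes tested were called higher, and 6.44% lower. The same 7 did not overlap between the groups, where 8.96% of genes with a mean of at least 50 normalized counts lay wholly higher. Because the genes were selected with these differences known, these counts describe the choice and nothing is read from them. For Aged Bleo against Young Sham, 6 of 8 were called higher (6.49% of all genes, and 3.09% lower). Not overlapping were 5 genes that lay higher (6.24% of genes) and Ebf1, which lay lower (6.05% of genes). For Aged Bleo against Aged Sham, 5 of 8 were called higher (3.36% of all genes, and 2.41% lower), and all 8 overlapped between the groups, where 5.87% of genes lay wholly higher. Both comparisons with Young Sham share those 5 control libraries. With edgeR's quasi-likelihood test none of the 8 was called for Aged Bleo against Aged Sham, where edgeR called 0.797% of all genes in either direction. The number at an unadjusted p under 0.05 was 5, and nothing is read from it because of how the genes were chosen.

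**Figure D2:**
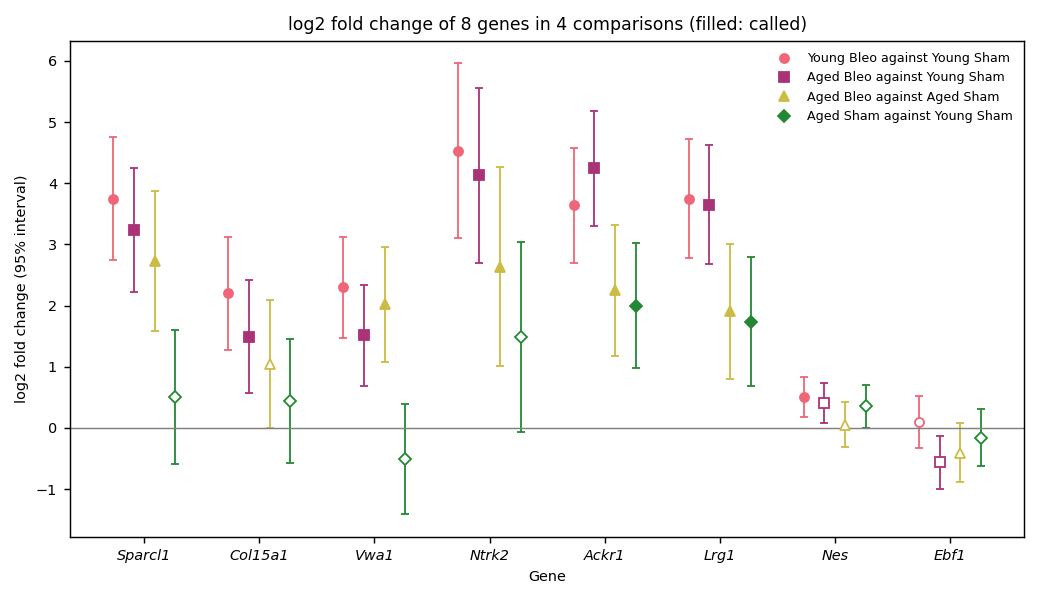
log2 fold change (vertical axis) of the 8 genes in 4 comparisons, from DESeq2 with 95% intervals, where filled symbols were called. Sparcl1, Ntrk2, Ackr1 and Lrg1 lie above 3 for both bleomycin groups against Young Sham, and the Aged Bleo values against Aged Sham are lower than those against Young Sham for 6 of the 8 genes.

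The comparison of Aged Sham with Young Sham asks whether these genes differed with age in lungs without injury. The Young Sham libraries were among the results known when the genes were chosen, and a choice of genes low in them favours higher values in Aged Sham, so the p-values below are not independent of the choice. Ackr1 was 2.00 ± 0.52 (SE) higher on the log2 scale (4-fold; DESeq2 adjusted p = 0.00823), and Lrg1 was 1.74 ± 0.54 higher (3.34-fold; DESeq2 adjusted p = 0.0397). Each was higher in 3 of 3 Aged Sham libraries than in any Young Sham library. These 2 of the 8 genes were called higher, where 2.19% of all genes were called higher and 1.1% lower, and 5.44% of genes lay wholly higher. Neither call held throughout. edgeR called neither (adjusted p = 0.088 for Ackr1 and 0.167 for Lrg1, with 0.862% of all genes called in either direction), and both had an unadjusted p under 0.05 there. Without Aged Sham 14 the DESeq2 values fell to 1.31 for Ackr1 (adjusted p = 0.256) and 0.93 for Lrg1 (adjusted p = 0.486). The Lrg1 call was also lost, with values of 1.66 to 1.78, when any 1 of the 5 Young Sham libraries or Aged Bleo 1 or Aged Bleo 2 was left out.

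Among the others, Ntrk2 was at 1.49 ± 0.79 (SE) by DESeq2 (adjusted p = 0.373), and this rested on Aged Sham 14, since without it the value was -0.58. Likewise Sparcl1 went from 0.51 to -0.18 and Col15a1 from 0.45 to -0.44 without that library. Vwa1 was at -0.50 ± 0.46, Nes at 0.36 ± 0.18 and Ebf1 at -0.16 ± 0.24, and none of these was called. Nes passed only when Aged Sham 15 was left out (0.56, DESeq2 adjusted p = 0.0197). The interval of the Sparcl1 difference was -0.59 to 1.61. Macrophage markers differed between these groups too, with a summed FPKM of 49.4, 160 and 53.9 in Aged Sham 13 to 15 and 22.4 to 39.2 in Young Sham, and 1 of 7 was called (Itgam). Erythroid markers summed to 229 to 479 FPKM in Aged Sham and 32.4 to 156 in Young Sham, with 1 of 5 called higher (Hba-a1). Neutrophil markers summed to 0.418 to 3.39 and 0.0807 to 0.773 FPKM, with 1 of 5 called higher (S100a8), and B cell markers to a median of 2.30 and 0.958, with 1 of 5 called higher (Cd79a). Among venous markers, 2 of 7 were called higher (Slc6a2 and Bst1). Called lower were 3 of 7 general capillary markers (Aplnr, Kit and Tek), 2 of 8 pericyte markers and 2 of 12 tip-cell genes. Called higher were 1 of 8 fibroblast markers (Pdgfra) and 1 of 7 pan-endothelial markers (Erg). The part of these cells in the values of Ackr1 and Lrg1 was not tested.

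Age was also compared within injured mice. The Young Bleo libraries were among the results known when the genes were chosen, and a choice of genes high in them favours lower values in Aged Bleo. The p-values below are therefore not independent of the choice. For Aged Bleo against Young Bleo none of the 8 genes was called by DESeq2, where 1.02% of all genes were called in either direction, and edgeR called none (0.0437% of all genes). At so low a share, the lack of calls among 8 genes says nothing about them. Ebf1 alone had an unadjusted p under 0.05 in each of these tools, and limma added Col15a1 and Vwa1 at that level without calling any. Ebf1 was lower by 0.66 ± 0.23 (SE; DESeq2 adjusted p = 0.142), in 4 of 4 Aged Bleo libraries against every Young Bleo library, and 2.42% of genes lay wholly lower. The other log2 differences ran from -0.78 ± 0.44 for Vwa1 to 0.61 ± 0.50 for Ackr1. They moved when 1 library was left out. Without Aged Bleo 1, Vwa1 was at -1.20, Sparcl1 went from -0.51 to -1.18 and Ntrk2 was at -0.97. Without Aged Bleo 2, Ackr1 was at 0.02, Col15a1 at -1.14 and Lrg1 at -0.51, and without Aged Bleo 3 Lrg1 was at 0.23. The 95% intervals were wide. For Lrg1 the difference was -0.10 with an interval of -1.12 to 0.93, and for Ntrk2 it was -0.41 with an interval of -1.91 to 1.10.

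The bleomycin response was also set beside age by subtracting the young response from the aged response. None of the 8 genes was called by DESeq2 (0.382% of all genes were called in either direction) or by edgeR (0.00546%), and 1 gene, Lrg1, had an unadjusted p under 0.05 in each. Lrg1 was at -1.84 ± 0.75 (SE), and it was -1.03 without Aged Sham 14. The values of all 8 were negative, from -1.90 ± 1.10 for Ntrk2 to -0.28 ± 0.64 for Vwa1. Those of Ntrk2 and Vwa1 moved to 0.18 and 0.04 without Aged Sham 14, so the shared sign of the 8 values was not kept without that library. The genes were chosen with the young response known, a choice that favours negative values here, so these values are a description and nothing is read from their sign or from the lack of calls.

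Of the members, 6 varied together from library to library. Among the 6 members that were much higher in Young Bleo, Pearson's r of log2 normalized counts ran from 0.68 to 0.97 over the 16 libraries, and from 0.48 to 0.95 once each group's mean was taken out (15 pairs). The highest of the latter was for Sparcl1 and Vwa1. Ebf1 had negative values with all 7 other members after the group means were taken out, from -0.53 to -0.32. These points share libraries and their scaling, and the values are descriptive. The 6 were taken by their rise in Young Bleo, a choice that favours high values over the 16 libraries. Relative to the young mice, Aged Bleo 1 and Aged Bleo 2 were at or above the lowest Young Bleo library for 6 of 6 of these genes. Aged Bleo 5 was so for 1 of 6 (Ackr1) and Aged Bleo 3 for none, although they lay above every Young Sham library for 4 and 5 of 6.

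The coefficient of variation describes the spread within groups. For Sparcl1 it was 91.0% in Aged Bleo and 32.3% in Young Bleo, and for Ackr1 it was 73.2% and 15.5%. Lrg1 had 77.9% and 43.4%, while Nes had 17.1% and 9.71%. Aged Sham also varied widely, with 68.4% for Sparcl1, 132% for Ntrk2 and 74.4% for Lrg1. Ebf1 was the exception, with 22.2% in Aged Bleo and 25.1% in Young Bleo.

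The sort was checked against markers of other cell types. Pecam1 had at least 66.6 FPKM and Cdh5 at least 67.6 FPKM in every library. The summed FPKM of the 7 pan-endothelial markers was lower after bleomycin, at 1949 to 2132 in Young Sham, 1031 to 1543 in Young Bleo, 1632 to 1819 in Aged Sham and 943 to 1573 in Aged Bleo. Cldn5, a tight junction gene of ECs, made up most of this sum, with a group mean FPKM of 1534 in Young Sham and 830 in Young Bleo. In Young Bleo against Young Sham, 2 of the 7 were called higher (Erg and Emcn) and 2 lower (Kdr and Cldn5). The sum had Pearson's r of -0.92 with the mean level of the 8 members over the 16 libraries (-0.85 within groups), as a description, and its part in their values was not tested. Macrophage markers moved with the members. The summed FPKM of 7 macrophage genes was 22.4 to 39.2 in Young Sham, 146 to 420 in Young Bleo, 49.4 to 160 in Aged Sham and 188 to 1334 in Aged Bleo. It was highest in Aged Bleo 1 (1334) and Aged Bleo 2 (762) and, among Aged Sham, in Aged Sham 14 (160). Lyz2 made up most of this sum, and Ptprc, which encodes CD45, had group mean FPKM of 0.0105 to 0.242. Of the 7 genes, 4 were called higher in Young Bleo and 5 in Aged Bleo, both against Young Sham. The part of these cells in the members' values was not tested, and in bulk RNA fewer cells of a kind cannot be told apart from less RNA per cell.

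The aerocyte markers went the other way. The summed FPKM of Car4, Ednrb, Apln, Fibin, Tbx2, Chst1 and Kdr was 1626 to 2076 in Young Sham, 224 to 1013 in Young Bleo, 1191 to 1899 in Aged Sham and 214 to 1342 in Aged Bleo. All 7 were called lower in Young Bleo and 3 of 7 in Aged Bleo, both against Young Sham. For Aged Bleo against Aged Sham none of the 7 was called, with a median log2 fold change of -1.04. Young Bleo 20, the lowest Young Bleo library for 5 of the members, had the highest aerocyte sum of its group (1013). Aged Bleo 3 (1342) and 5 (1043) had the highest of theirs, and Aged Sham 14 (1191) had the lowest of the Aged Sham. Arterial markers (Bmx, Cxcl12, Efnb2, Gja4, Gja5, Hey1 and Sox17) followed the members, with 5 of 7 called higher in Young Bleo and 6 of 7 in Aged Bleo against Young Sham. The study describes Cxcl12 of this list as a marker of general capillary ECs. Over the 16 libraries, the mean standardized level of the 8 members had Pearson's r of -0.93 with the aerocyte sum, 0.93 with the arterial sum and 0.86 with the macrophage sum, all as log2 values. Within groups these were -0.82, 0.91 and 0.82. These values are descriptive and share libraries and scaling, and the part of the cell mix in the members' changes was not tested.

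**Figure D3:**
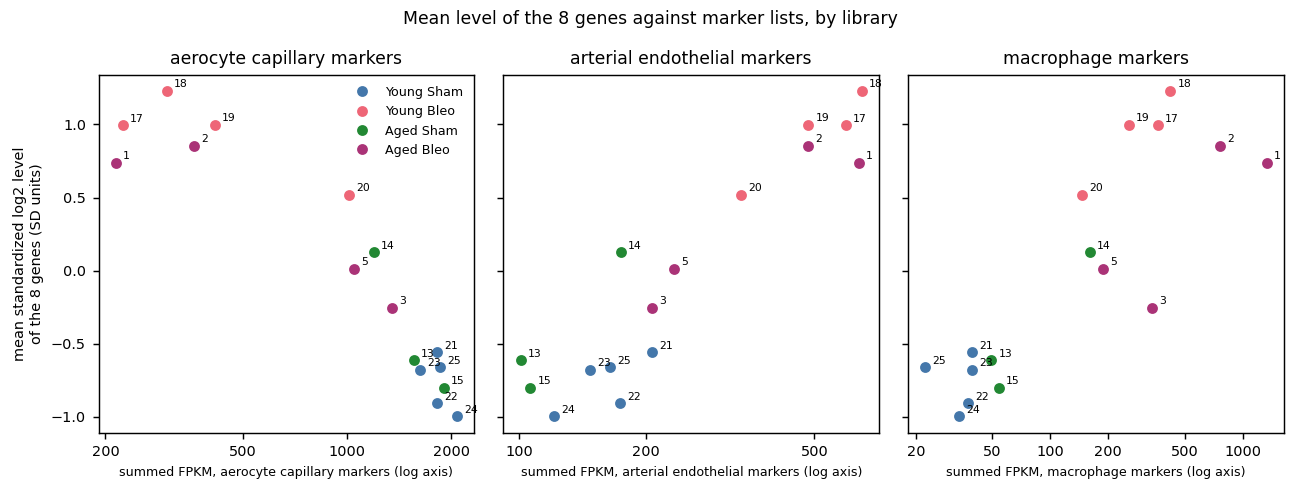
Mean standardized log2 level of the 8 genes (vertical axis, SD units) against the summed FPKM of aerocyte, arterial and macrophage markers (log axes), 1 point per library with its number. Libraries high for the 8 genes are low for aerocyte markers and high for arterial and macrophage markers, and Young Bleo 20, Aged Sham 14, Aged Bleo 3 and Aged Bleo 5 lie between the others in the aerocyte panel.

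The summed SPARC-family genes gave Pearson's r of 0.90 (0.88 within groups) and the summed pericyte markers -0.83 (-0.79 within groups). Of 8 pericyte markers, 4 were called lower in Young Bleo and 5 in Aged Bleo, both against Young Sham, and their summed FPKM was 19.1 to 38.6 in Young Sham and at most 13.5 in any other group. Of 6 lymphatic markers, 3 were called higher in Young Bleo (Ccl21a, Pdpn and Prox1) and 1 in Aged Bleo. Of 7 venous markers, 1 was called higher in Young Bleo (Slc6a2) and 3 in Aged Bleo (Slc6a2, Bst1 and Vwf). Of 7 general capillary markers, Cd93 and Gpihbp1 were called higher in each of these comparisons. The sum of these 7 had r of 0.63 with the mean level of the members (0.66 within groups). Smooth muscle markers were called lower, 2 of 6 in Young Bleo and 6 of 6 in Aged Bleo. Neutrophil markers had 1 of 5 genes called higher in each comparison (S100a8), with summed FPKM of 0.451 to 1.22 in Young Bleo and 2.10 to 9.64 in Aged Bleo beside 0.0807 to 0.773 in Young Sham, and r of 0.55 with the mean level of the members (0.69 within groups). Schwann and neuronal markers had 2 of 4 called higher in Young Bleo (S100b and Tubb3) and 1 in Aged Bleo (Tubb3), with a sum of at most 3.21 FPKM in any library. The part of these lists in the members' values was not tested. Fibroblast markers, whose reporter-positive cells were sorted out, had no gene called higher in either comparison, and 1 of 8 was called lower in Young Bleo and 4 of 8 in Aged Bleo. For Aged Bleo against Aged Sham, 5 of 7 arterial, 4 of 7 general capillary and 3 of 7 macrophage markers were called higher. Called lower there were 3 of 6 smooth muscle, 2 of 8 fibroblast, 1 of 7 pan-endothelial and 1 of 4 Schwann and neuronal markers. The part of these shifts in the members' values was not tested.

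The systemic-type list was set beside the members to describe how genes that share their label changed. The list and the members were both chosen with results of these libraries known, so the values below are a description and not a test. Of 12 tested genes in that list, 3 were called higher in Young Bleo against Young Sham and 2 lower, with a median log2 fold change of -0.03 beside 0.01 over all genes tested. Selp (1.09), which encodes P-selectin, Tshz2 (1.03) and Abcb1a (0.83) were higher, and Meox1 (-0.86) and Spry1 (-1.08) were lower. The EBF relatives Ebf2 and Ebf3 were at or below 0.0879 mean FPKM in every group. In Aged Bleo against Young Sham, 2 of 12 were called higher (Selp and Vwf) and 3 lower (Meox1, Meox2 and Spry1), with a median of 0.23. Tip-cell genes of angiogenic sprouts gave 1 higher (Nid2) and 2 lower (Apln and Dll4) of 12 in Young Bleo. 

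Genes related to each member by structure or pathway were examined next, in Young Bleo against Young Sham. These lists were also chosen with earlier results of these libraries known. The calls and p-values of their genes, here and below, are therefore not independent of the choice. Their median log2 fold change was 0.59 for the SPARC family, -0.40 for the matrix partners, 0.01 for TrkB signalling, -0.30 for atypical chemokine receptors, 0.09 for the TGF-beta list, 0.31 for intermediate filaments and 0.23 for EBF partners. Over all genes tested it was 0.01, and over the 8 members it was 2.97. In the SPARC family, Sparc was higher in Young Bleo by 1.41 ± 0.31 (SE; DESeq2 adjusted p = 0.000156) and Fstl1 by 0.61 ± 0.20 (adjusted p = 0.0175), and Smoc1, Smoc2 and Spock2 were not called. Sparc reached a mean FPKM of 824 in Young Bleo against 307 in Young Sham, above Sparcl1 in both groups. Spock1 and Spock3 had too few counts to be tested. Sparc was at 0.74 in Aged Bleo against Young Sham and was not called.

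The matrix partners of Col15a1 and Vwa1 were split in Young Bleo. Hspg2, which encodes perlecan, was higher by 2.35 ± 0.46 (SE; DESeq2 adjusted p = 2.18e-05), and Col18a1, the closest relative of Col15a1, by 1.58 ± 0.29. Fbln2 was higher by 1.17 ± 0.31. Col6a3 (-1.74 ± 0.32) and Nid1 (-0.58 ± 0.14) were lower. In all, 3 of 8 were called higher and 2 lower in Young Bleo, and 1 higher and 4 lower in Aged Bleo against Young Sham. In Aged Bleo, Col18a1 was higher (1.25), while Nid1, Col6a2, Col6a3 and Lamc1 were lower.

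Of 8 tested genes of TrkB signalling, none was called higher in Young Bleo and 1 was called lower, the sorting receptor gene Sort1 (-0.89 ± 0.22). Bdnf, a TrkB ligand, was at -1.57 in Young Bleo without a call and was called lower in Aged Bleo (-1.93). Its level was near the floor, with a mean FPKM of at most 0.102 in any group. Ntrk3, which encodes the receptor TrkC, had a mean FPKM of at most 0.0377 in any group, whereas Ntrk2 reached 18.2 in Young Bleo. The ligand genes Ntf5 (2.36 ± 1.58, with 4 of 5 Young Sham libraries at 0 FPKM and a Young Bleo mean of 0.0679) and Ntf3 (0.29 ± 0.67) were not called. Neither were the adaptor genes Shc1 (0.23), Frs2 (-0.34) and Plcg1 (-0.21).

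None of the other atypical chemokine receptors was called higher in Young Bleo against Young Sham, where Ackr1 was. In Young Bleo, Ackr2 (-0.60 ± 0.19) and Ackr4 (-0.87 ± 0.32) were called lower, and Ackr3 (0.48) and Ccrl2 (-0.01) were not called. In Aged Bleo against Young Sham, Ackr3 was called higher (0.97), as Ackr1 was, and Ackr4 was called lower (-1.34). Ackr4 was lower in Aged Sham against Young Sham too (-1.31), whereas Ackr1 was higher there.

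Among the genes through which Lrg1 acts on TGF-beta signalling, Id2 (1.32 ± 0.32), Smad5 (0.77 ± 0.23) and Smad1 (0.51 ± 0.10) were called higher in Young Bleo, and Acvrl1, which encodes ALK1, was called lower (-0.86 ± 0.19). Eng, the gene of endoglin, was at -0.36 and was not called. The count was 3 higher and 1 lower of 10. In Aged Bleo against Young Sham it was 1 higher (Id2, 1.02) and 1 lower (Acvrl1, -0.69).

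Of the relatives of Nes, Vim was at 0.19 and Lmna at 0.43 in Young Bleo, without a call, and Lmnb1 was higher (1.05 ± 0.36). Des (-1.97 ± 0.52) and Synm (-1.30 ± 0.42), which are also muscle genes, were lower. None of the 6 partners and relatives of Ebf1 was called in Young or Aged Bleo against Young Sham by DESeq2, with values from -0.57 (Ebf4) to 1.06 (Zfp423) in Young Bleo.

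**Figure D4:**
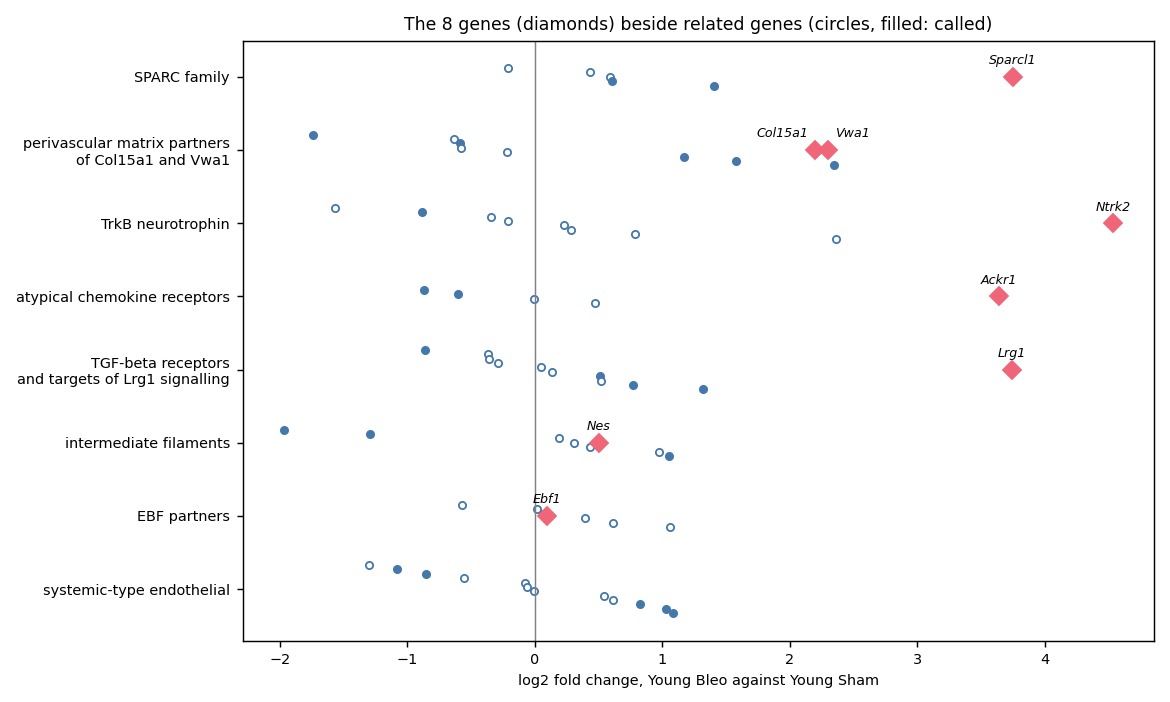
log2 fold change for Young Bleo against Young Sham (horizontal axis) of the 8 genes as diamonds and of the tested genes of 8 related lists as circles, filled where called. The diamonds of Sparcl1, Ntrk2, Ackr1 and Lrg1 lie to the right of all circles of their lists, while Nes and Ebf1 lie among theirs.

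Genes with the most similar pattern to each member were found by Pearson's r of log2(normalized count + 1) over the 16 libraries, among genes with a mean of at least 50 normalized counts. Jam2 (0.992) and Amd1 (0.986) were the most like Sparcl1, Amd1 (0.985) and Cdk19 (0.985) the most like Ntrk2, and Gm26840 and Fkbp10 (0.966) the most like Vwa1. Fam181b (0.944) and Fam167b (0.943) were the most like Col15a1, and Ankrd37 (0.977) and Gm17035 (0.976) the most like Lrg1. For Ackr1 they were Srsf1 (0.934) and Ctss (0.924), which encodes cathepsin S, a protease of macrophages and other antigen-presenting cells. Nes had Anp32a (0.887) and Pdlim7 (0.844), and Ebf1 had Uggt2 (0.824) and Zfp738 (0.820). The mean standardized level of the 8 was most like Fam181b (0.984), Gm9934 (0.981), Dnah3 (0.977), Amd1 (0.974) and Sox17 (0.970). Sox17 is a transcription factor gene of arterial ECs, and it was 2.22 higher on the log2 scale in Young Bleo and 1.67 higher in Aged Bleo against Young Sham. Amd1 was at 3.89 and 3.48 and Jam2 at 2.05 and 1.68 in the same comparisons.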

How the data were processed

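RNA of sorted lung ECs was sequenced in 16 libraries. The authors aligned reads to mm10 with STAR 2.5.2b and deposited raw gene counts (Subread featureCounts, per the submitters' processing notes) and FPKM in 1 merged table. The library kit is given as SMART-Seq v4 with Nextera in the labels and as TruSeq in the methods. Which annotation release was used, whether strand was considered and how multi-mapped reads were treated are not given in the sources used here. Counts on the deposited scale set the precision, and counting error is only part of the spread between libraries.

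Counts of all genes were fitted with DESeq2 1.42.0 in R 4.3.3 (Wald test, 1 term per group, all libraries, unshrunken fold changes, Benjamini-Hochberg adjustment over all genes). The fit was tried on simulated data for Young Bleo against Young Sham only, with the same spread for all genes. That spread was below the one most members had in the aged groups, so the simulation does not show how the fit does there. Groups came from the labels. The members and the gene lists were chosen with earlier results of these data known. The named genes were the 8 members, the genes of the fixed lists and, for each member, the 2 genes (for their mean, the 5) with the highest Pearson correlation. Normalized counts are counts divided by DESeq2 size factors. Replicates of a group differed by more than sampling noise. Alternatives were edgeR 4.0.16, TMM size factors, a filter of at least 10 counts in 3 libraries, limma 3.58.1 on log2(FPKM + 0.1) and log2(FPKM + 1) with a minimum mean FPKM of 0.1, only the groups compared, and leaving out each library. Promoter sequences came from RefSeq (GRCm38.p6).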

Additional observations from a re-analysis of the deposited data

Results flagged for a closer look

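In Young Bleo, the Ackr1 level of library 18 stood apart below the others of its group, at 1071 normalized counts against 1516, 1520 and 1457. It was 1 of 24 sets of libraries examined in this way, and chance gives about 1 in 20. Young Bleo 18 was the highest library of its group for Vwa1 and Lrg1.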

How the results depend on the processing

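For Aged Sham against Young Sham, the number of the 8 genes called was 2 in DESeq2, 1 with the low-count filter (Ackr1), and 0 with edgeR and with limma at either pseudocount, where 2 genes had an unadjusted p under 0.05 (limma called 139 and 159 of all genes). Leaving out 1 library gave 0 to 3. For Aged Bleo against Aged Sham it was 5, and it was 0 with edgeR (5 at an unadjusted p under 0.05), 1 with limma at either pseudocount (369 and 279 of all genes), 2 with only the groups compared (653 of all genes), and 3 to 6 when 1 library was left out. The cause was not tested. For Young Bleo against Young Sham the number was 7 (6 to 7 when 1 library was left out), and 6 with limma on log2(FPKM + 1), where Nes was lost (1478 of all genes). For Aged Bleo against Young Sham it was 6 (4 to 7), 5 with edgeR (Col15a1 lost) and 4 with limma at either pseudocount (Col15a1 and Vwa1 lost, 1141 and 892 of all genes). No member was called for Aged Bleo against Young Bleo or for the difference of responses in any fit run. No called value changed sign. No paired analysis was possible because replicate numbers do not repeat between groups. Col15a1 had low counts, with 60 in its lowest library, and the effect of depth on its values was not tested.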
